A study of Mus musculus with 48 samples.

Results

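Marco, Tspan4 and Spon2 are 3 of the 47561 genes in a table of lung mRNA levels from 48 mice. They were chosen by measured values, namely the difference between mice given aurothioglucose and mice given saline within each strain and air group, so that difference is given for them as a description, with no test. Each combination of strain, sex, injection and air held 3 mice, which makes 16 groups. Adult C3H/HeN (C3H) or C57Bl/6 (C57B) mice, male (M) or female (F), received 1 intraperitoneal injection of saline (SAL) or of 25 mg/kg aurothioglucose (ATG). Aurothioglucose carries gold and blocks the enzyme thioredoxin reductase. They then spent 96 h in room air (RA) or in hyperoxia (HYP), at over 95% oxygen, before the lungs were taken. The sources name the C57B substrain in different ways, and C57B is used here throughout. Mice are called by the numbers 1 to 48 that the labels give them.

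The 3 genes encode proteins of different kinds. Marco encodes a class A scavenger receptor of macrophages, which binds bacteria and inhaled particles and which alveolar macrophages are known to carry. Tspan4 encodes a tetraspanin, one of the membrane proteins that organise other membrane proteins into domains, and it is known as a marker of migrasomes, the vesicles that migrating cells leave on their retraction fibres. Spon2 encodes mindin, a secreted matrix protein that binds bacterial surfaces and integrins and takes part in the recruitment of leukocytes. Thioredoxin reductase inhibitors are known to activate Nrf2, a factor that drives antioxidant genes through the antioxidant response element.

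Marco (ENSMUSG00000026390) lies on chromosome 1 at chr1:120474538-120505024 of GRCm38, minus strand, and its longest coding transcript has 17 exons. Tspan4 (ENSMUSG00000025511) lies on chromosome 7 at chr7:141475240-141493427, plus strand, with 8 exons, and Spon2 (ENSMUSG00000037379) on chromosome 5 at chr5:33198184-33218455, minus strand, with 6 exons. No sequence of 30 bases in the transcripts of Marco or Tspan4 occurred on the same strand in a transcript of another gene, and 1 of the 2970 in Spon2 did. On the opposite strand, 11.9% of those in Tspan4 lay in Chid1, which overlaps it by 292 bases. The sources used here do not say whether reads were counted by strand, so reads from this overlap cannot be assigned with certainty. The median level of Chid1 was 10.3 FPKM and its highest 17.3 FPKM, below the lowest Tspan4 level of 27.6 FPKM.

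The 250 bases before the RefSeq start sites (GRCm38.p6) are shown for Marco, at chr1:120505025-120505274 on the minus strand, and for both start sites of Tspan4, at chr7:141474986-141475235 and chr7:141476130-141476379 on the plus strand. The levels of these genes differed between the injections in some groups. Both strands were searched for the antioxidant response element TGACNNNGC, the metal response element TGCACNC or TGCGCNC, the AP-1 site TGANTCA, which can overlap the antioxidant response element, and the E-box CACGTG, the site bound by the clock factor pair of CLOCK and ARNTL. Capitals mark every match.
Marco: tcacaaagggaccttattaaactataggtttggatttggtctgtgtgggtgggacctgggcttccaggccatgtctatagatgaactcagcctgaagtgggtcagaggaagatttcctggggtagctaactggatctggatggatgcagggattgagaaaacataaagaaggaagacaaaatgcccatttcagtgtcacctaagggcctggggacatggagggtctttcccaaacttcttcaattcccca
Tspan4, first start: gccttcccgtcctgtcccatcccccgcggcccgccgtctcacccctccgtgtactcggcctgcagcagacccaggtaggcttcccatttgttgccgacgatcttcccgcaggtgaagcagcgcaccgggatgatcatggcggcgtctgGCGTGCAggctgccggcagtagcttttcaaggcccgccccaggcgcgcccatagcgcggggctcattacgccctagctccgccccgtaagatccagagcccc
Tspan4, second start: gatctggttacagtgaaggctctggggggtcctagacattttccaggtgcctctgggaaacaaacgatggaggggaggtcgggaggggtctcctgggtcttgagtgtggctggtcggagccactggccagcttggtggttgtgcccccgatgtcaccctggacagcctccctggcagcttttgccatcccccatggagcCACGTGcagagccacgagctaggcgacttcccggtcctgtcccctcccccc
Marco held none of the 4 motifs in this window, which says only that these letters are not there. The first start of Tspan4 held 1 metal response element, a motif present in 21.4% of the 32851 promoters of the table. Its second start held 1 E-box, with the first base 51 bases before the start site, a motif present in 6.02% of the promoters. The antioxidant response element was present in 10.2% of all promoters and the AP-1 site in 6.75%, and neither was found in the 3 windows. Spon2 had no entry in the promoter table.

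Levels are in FPKM, sequenced fragments scaled by transcript length and library size, which can be compared between genes. All 3 genes exceeded 1 FPKM in every mouse and were among the 16994 genes tested. Tspan4 was the most abundant, with a mean of 103 FPKM and a range of 27.6 to 234 FPKM. Spon2 averaged 18.2 FPKM, from 1.56 to 71.3 FPKM, and Marco 13.2 FPKM, from 1.14 to 71.5 FPKM. Within groups of 3 mice the SD on the log2(FPKM + 1) scale was 0.19 for Tspan4, 0.50 for Marco and 0.67 for Spon2. H2-Ea-ps and Rpl29, which separate the strains, matched the strain label in 48 of 48 mice, and the summed FPKM of a mouse ranged from 510933 to 748290. Mice 1, 3 and 4 stood apart by their ribosomal RNA transcript Rn18s-rs5, at 20766 to 25895 FPKM, and the main results that rest on them are also given without them. As the samples were bulk lung, fewer cells of a type and less RNA per cell cannot be told apart.

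**Figure D1:**
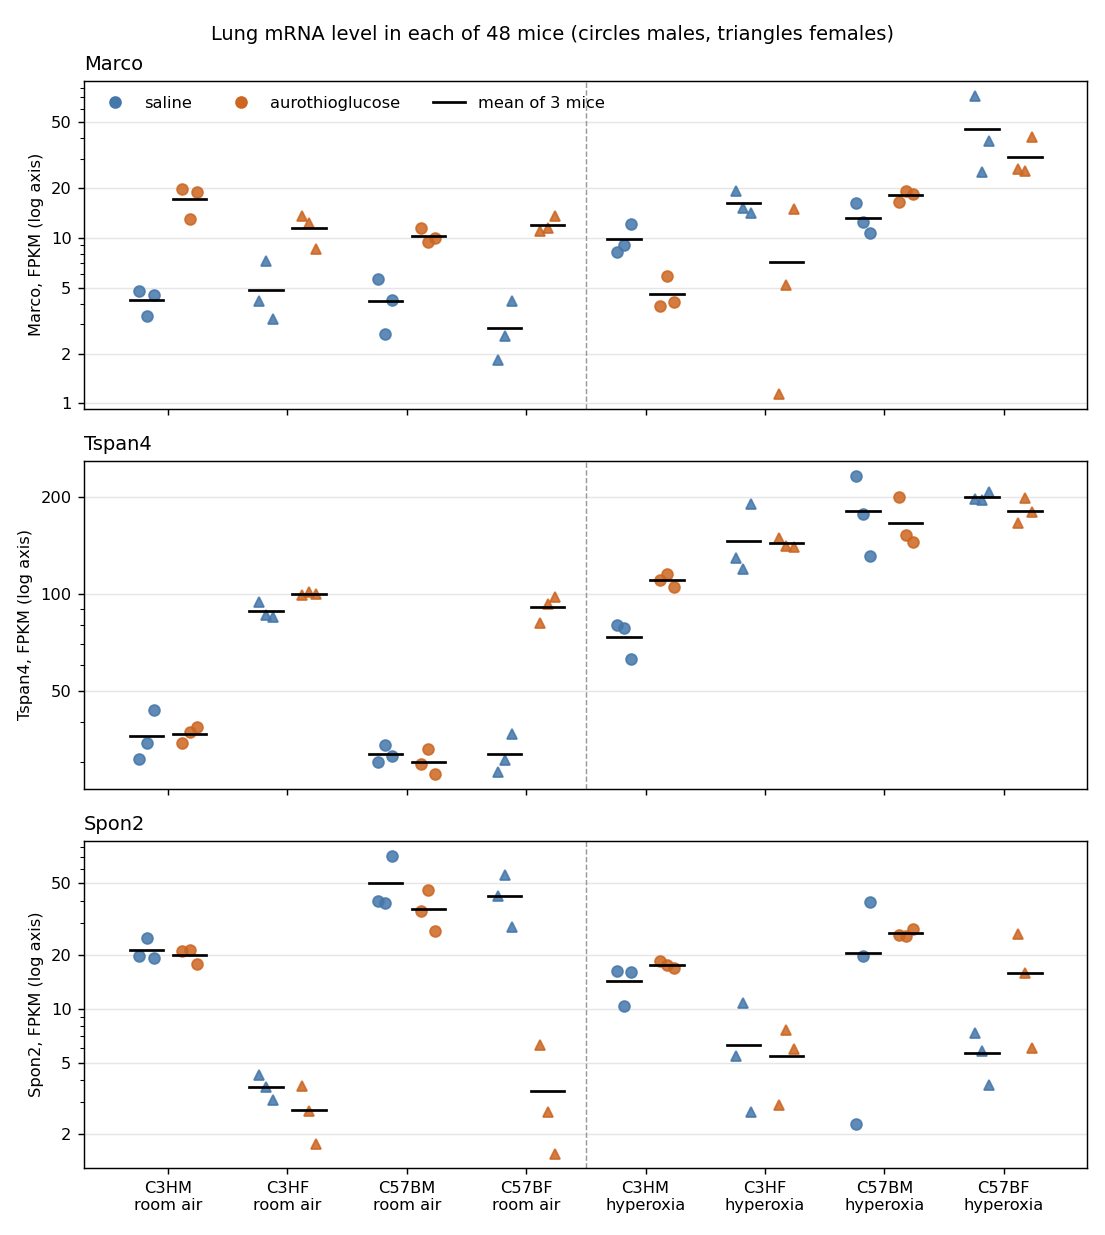
FPKM of Marco, Tspan4 and Spon2 on log axes in each of 48 mice, by strain, sex and air, with saline in blue, aurothioglucose in orange and a bar at the mean of 3 mice. Marco after aurothioglucose lay above saline in all 4 room air pairs, and Tspan4 and Spon2 stood apart between the injections in C57BF in room air, at 81.3 to 98.2 against 28.0 to 36.7 FPKM and at 1.56 to 6.24 against 28.5 to 55.8 FPKM.

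In room air, Marco was 2.35 to 4.19 times higher after aurothioglucose than after saline in the 4 pairs of groups. In C3HM the 3 saline mice had 3.34, 4.49 and 4.77 FPKM and the 3 aurothioglucose mice 12.9, 18.9 and 19.5 FPKM. In C3HF the saline mice had 3.21, 4.13 and 7.25 FPKM and the aurothioglucose mice 8.48, 12.3 and 13.5 FPKM. No saline mouse of C3H therefore reached the level of any aurothioglucose mouse of its strain.

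In C57BM, Marco was at 2.62, 4.21 and 5.63 FPKM after saline and at 9.36, 9.92 and 11.4 FPKM after aurothioglucose. In C57BF it was at 1.84, 2.55 and 4.16 FPKM after saline and at 10.9, 11.5 and 13.4 FPKM after aurothioglucose. The groups did not overlap in C57B either. The mean over both sexes went from 4.53 ± 1.47 (SD, n = 6) to 14.3 ± 4.22 FPKM in C3H, a ratio of 3.15, and from 3.50 ± 1.41 to 11.1 ± 1.42 FPKM in C57B, a ratio of 3.16. On the log2(FPKM + 1) scale, which understates changes of low levels, these differences were 1.46 (SE 0.28) in C3H and 1.48 (SE 0.28) in C57B. Of all 16994 genes tested, 0% were called after aurothioglucose in C3H in room air (limma, Benjamini-Hochberg adjusted p under 0.05, and 1594 genes at an unadjusted p under 0.05) and 0.053%, or 9 genes, in C57B in room air. The same contrasts chose Marco, and nothing is read from its place among these genes. Without mouse 2, 1166 genes were called in C3H in room air, and without mice 1, 3 and 4, 1 gene was. Without mice 1, 3 and 4 the log2 difference of Marco in C3H in room air was 1.53.

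In hyperoxia, Marco after aurothioglucose was lower than after saline in C3H and spread over the same range in C57B. In C3HM it was at 8.22, 9.00 and 12.1 FPKM after saline and at 3.85, 4.08 and 5.83 FPKM after aurothioglucose, and these groups did not overlap. In C3HF the values were 14.0, 15.1 and 19.1 FPKM after saline and 1.14, 5.18 and 14.9 FPKM after aurothioglucose. The 2 C3HF groups overlapped through mouse 36 alone, the highest of the aurothioglucose mice. The C3H mean went from 12.9 ± 4.06 to 5.83 ± 4.73 FPKM (n = 6 each), a ratio of 0.451, and the log2 difference was -1.23 (SE 0.28), or -1.58 without mouse 36 and -0.86 without mouse 34, the lowest. In C57B the mean was 29.0 ± 23.2 FPKM after saline and 24.2 ± 8.74 FPKM after aurothioglucose, with a log2 difference of -0.0024 (SE 0.28). Within C57B the sexes lay in opposite directions, with 10.7, 12.5 and 16.1 FPKM after saline against 16.3, 18.4 and 19.2 FPKM after aurothioglucose in C57BM, where the groups just failed to overlap. In C57BF the values were 24.9, 38.5 and 71.5 FPKM after saline and 25.1, 26.0 and 40.2 FPKM after aurothioglucose, and the groups overlapped. Over all genes, 2.88% were called after aurothioglucose in C3H in hyperoxia and 2.69% in C57B in hyperoxia.

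The difference in Tspan4 between the injections was widest in the C57B females in room air. There the saline mice had 28.0, 30.5 and 36.7 FPKM and the aurothioglucose mice 81.3, 92.9 and 98.2 FPKM, a ratio of means of 2.86. In C57BM in room air the values were 29.9, 31.3 and 33.8 FPKM after saline and 27.6, 29.6 and 33.0 FPKM after aurothioglucose. The males overlapped almost wholly and the females stood far apart. In C3H in room air Tspan4 was at 36.1 ± 6.69 against 36.6 ± 2.08 FPKM in males (n = 3 each) and at 88.6 ± 5.18 against 100.3 ± 1.26 FPKM in females, saline first. The C3H males overlapped and the C3H females did not, although their ratio was 1.13. In hyperoxia the groups stood apart in C3HM, with 62.6, 78.4 and 80.0 FPKM after saline and 105, 111 and 116 FPKM after aurothioglucose, and overlapped in the other 3 pairs, with ratios of 0.903 to 0.981. These 3 were C3HF, at 147 ± 38.5 against 144 ± 5.08 FPKM, C57BM, at 181 ± 51.0 against 166 ± 30.4 FPKM, and C57BF, at 201 ± 5.84 against 181 ± 16.5 FPKM.

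Averaged over the sexes, the log2 difference of Tspan4 was 0.71 (SE 0.11) in C57B in room air, 0.11 in C3H in room air, 0.29 in C3H in hyperoxia and -0.12 in C57B in hyperoxia. In males of C57B in room air alone it was -0.074, the opposite sign, and in females alone 1.49.

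Spon2 differed in the opposite direction in the same females. In C57BF in room air it was at 28.5, 42.7 and 55.8 FPKM after saline and at 1.56, 2.65 and 6.24 FPKM after aurothioglucose, a ratio of 0.0822. In C57BM in room air the 3 saline mice had 38.9, 39.6 and 71.3 FPKM and the aurothioglucose mice 27.1, 35.2 and 46.0 FPKM. Spon2 in the aurothioglucose females thus lay below every saline mouse, while in the males the ranges overlapped. In C3H in room air it was at 21.3 ± 3.06 against 20.0 ± 1.90 FPKM in males and at 3.66 ± 0.58 against 2.72 ± 0.975 FPKM in females, and both pairs overlapped.

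In hyperoxia, Spon2 was at 5.63 ± 1.81 FPKM after saline and 15.9 ± 9.97 FPKM after aurothioglucose in C57BF, with overlap. In C57BM the saline mice were spread over 2.27, 19.8 and 39.3 FPKM, and the aurothioglucose mice lay close together at 25.3, 25.7 and 27.9 FPKM. The C3HM groups stood just apart, at 10.4 to 16.2 against 16.8 to 18.3 FPKM, and the C3HF groups overlapped. The sex-averaged log2 differences were -1.90 (SE 0.37) in C57B in room air, -0.22 in C3H in room air, 0.11 in C3H in hyperoxia and 1.07 in C57B in hyperoxia. In C57B in room air the value was -0.43 in males alone and -3.36 in females alone.

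**Figure D2:**
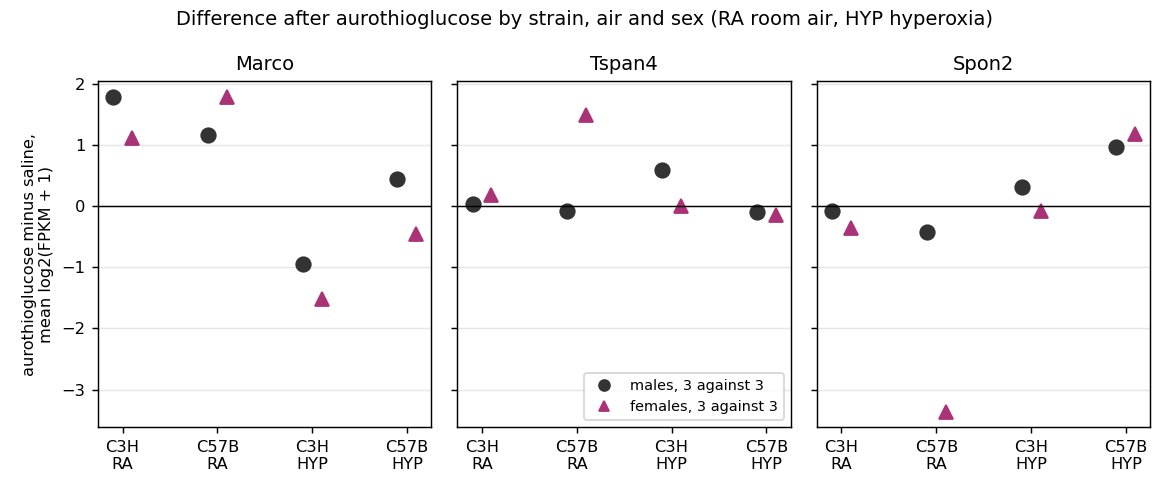
Difference in mean log2(FPKM + 1) between 3 aurothioglucose and 3 saline mice, for males (circles) and females (triangles) of each strain in room air (RA) and hyperoxia (HYP), with the line at 0 marking no difference. Marco lay above 0 in all 4 room air pairs, and the C57B females in room air stood at 1.49 for Tspan4 and -3.36 for Spon2.

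The difference between the sexes in the response to aurothioglucose, averaged over strain and air, was tested. For this average, the difference (males minus females) was -0.27 (SE 0.11, adjusted p = 0.657) for Tspan4, 0.38 (SE 0.28, adjusted p = 0.800) for Marco and 0.84 (SE 0.37, adjusted p = 0.671) for Spon2 by limma. No gene was called, a background of 0% with 1248 genes at an unadjusted p under 0.05. Within C57B in room air the difference between the sexes was -1.57 (SE 0.22) for Tspan4, 2.93 (SE 0.74) for Spon2 and -0.63 (SE 0.55) for Marco. This comparison was added after the values by sex were seen, uses the mice and the contrast that chose the genes, and is given as a description with no test. Over all genes, the same comparison called 0.0177% in C57B in room air, 0% in C3H in room air, 0.0177% in C3H in hyperoxia and 0.00588% in C57B in hyperoxia, and nothing is read from these shares about the 3 genes.

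Clock genes differed between the same groups of mice. Dbp, an output gene of the circadian clock, was at 13.8 to 24.3 FPKM in the saline mice of C57BF in room air and at 128 to 153 FPKM in the aurothioglucose mice. Arntl, which encodes the core clock activator BMAL1, was at 5.83 to 9.02 FPKM after saline and at 1.06 to 1.40 FPKM after aurothioglucose. Nr1d2, which encodes the clock repressor REV-ERB beta, was at 10.9 to 19.0 and at 35.5 to 51.3 FPKM. The groups did not overlap for any of these genes. The C3H females in room air had a similar state whatever the injection, with Dbp at 94.8 to 133 FPKM and Arntl at 0.359 to 0.963 FPKM. In the males in room air Dbp was at 2.43 to 14.6 FPKM.

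Tspan4 and Spon2 split along the same groups in room air, a reading made after the values were seen. The 9 mice of C3HF with either injection and of C57BF with aurothioglucose had Dbp above 94 FPKM. Tspan4 was at 81.3 to 102 FPKM in them and at 27.6 to 43.5 FPKM in the 15 other mice in room air. Spon2 was at 1.56 to 6.24 FPKM in the 9 mice and at 17.8 to 71.3 FPKM in the 15 others, so that neither gene overlapped between them, and the 15 had Dbp at 2.43 to 24.3 FPKM. Marco overlapped widely, at 3.21 to 13.5 FPKM and 1.84 to 19.5 FPKM. This split parts the C57BF mice by injection, and so shares mice with the contrast that chose Tspan4 and Spon2. It also lies near a split by sex, since the 9 were all female and the 15 were the males and the C57BF saline mice. How many of all genes were without overlap on it was not counted, and nothing is read from the separation. Of the 17 clock genes of a list drawn up after the values were seen, 3 were called after aurothioglucose in C57B in room air, where the background was 0.053% of all genes, Dbp at 1.48 (SE 0.30, adjusted p = 0.0362), Nr1d2 at 0.96 (adjusted p = 0.00031) and Arntl at -0.99 (adjusted p = 0.00423) on the log2 scale, by limma. In males alone none was called there and in females alone 5 were, and with 1 mouse left out 1 to 4 were called higher and 1 lower. The labels give no hour of collection, and the part of the clock genes in the values of Tspan4 and Spon2 was not tested.

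**Figure D3:**
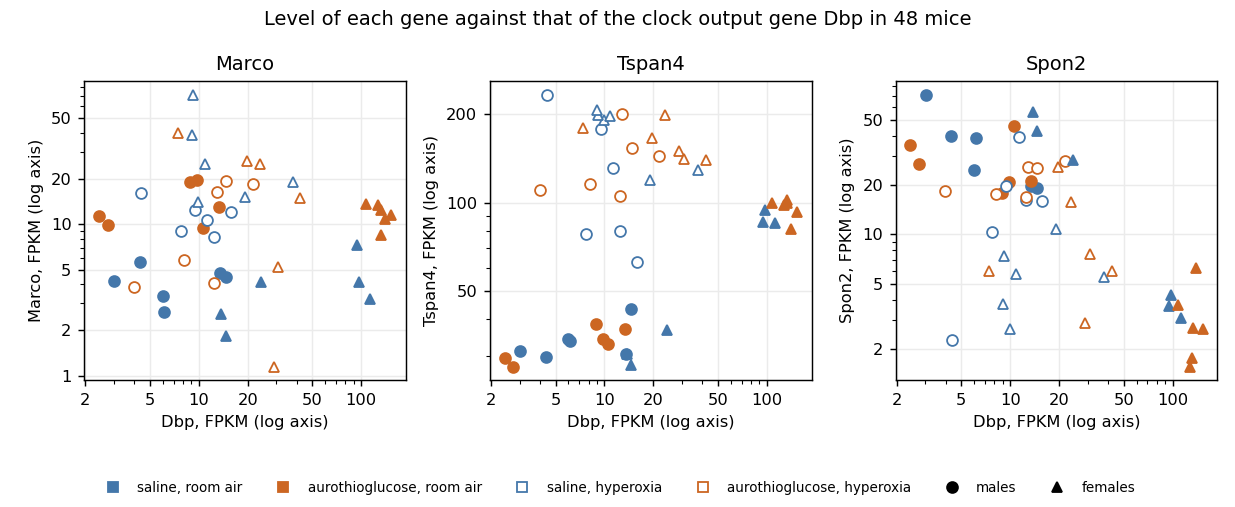
FPKM of each gene against FPKM of the clock output gene Dbp in 48 mice, both on log axes, with saline in blue, aurothioglucose in orange, room air filled, hyperoxia open, males as circles and females as triangles. In room air the 9 mice of C3HF and of C57BF with aurothioglucose had Dbp above 94 FPKM and held Tspan4 at 81.3 to 102 FPKM and Spon2 at 1.56 to 6.24 FPKM.

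Hyperoxia and strain did not choose the genes and were tested, each averaged over sex and injection. Tspan4 rose in hyperoxia in both strains, by 0.95 (SE 0.077, adjusted p = 7.70e-13) in C3H and by 2.12 (SE 0.077, adjusted p = 3.69e-23) in C57B on the log2 scale (limma). The mean went from 65.4 ± 30.9 to 119 ± 35.3 FPKM in C3H and from 46.1 ± 27.3 to 182 ± 29.4 FPKM in C57B (n = 12 each). The rise was larger in C57B than in C3H, with a difference of -1.17 (SE 0.11, adjusted p = 4.03e-10). Each of the 8 pairs of groups, by strain, sex and injection, lay higher in hyperoxia with no overlap. Over all genes, hyperoxia called 55.2% in C3H and 66% in C57B, and the strain by air interaction called 27.4%. The clock genes differed with air as well, with 14 of 17, or 82.4%, called in each strain. Of these, 7 were higher and 7 lower in hyperoxia in C3H, and 11 higher and 3 lower in C57B. Their part in the hyperoxia effects of Tspan4, Marco and Spon2 was not tested.

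Marco rose in hyperoxia in C57B, by 1.75 (SE 0.19, adjusted p = 7.44e-10), from 7.29 ± 4.18 to 26.6 ± 16.9 FPKM (n = 12 each). In C3H the averaged difference was -0.025 (SE 0.19, adjusted p = 0.929), with a 95% interval of -0.42 to 0.37. That average joined mice that lay in opposite directions. In C3H saline mice Marco was 2.85 times higher in hyperoxia than in room air with no overlap, and in C3H aurothioglucose mice it was 0.408 times the room air level, with overlap. In C57B saline mice the ratio was 8.29 and in C57B aurothioglucose mice 2.18, neither with overlap. The hyperoxia effect differed between the strains by -1.77 (SE 0.28, adjusted p = 9.80e-06). The markers of alveolar macrophages, given below, differed with air as well, and their part was not tested.

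Spon2 fell in hyperoxia in C57B, by 0.77 on the log2 scale (SE 0.26, adjusted p = 0.0102, limma), from 33.0 ± 21.4 to 17.1 ± 12.0 FPKM. In females alone the C57B difference was -0.42, with an adjusted p of 0.294. In C3H the difference was 0.13 (adjusted p = 0.707, 95% interval -0.40 to 0.66). The difference between the strains, 0.89 (SE 0.37), had an adjusted p of 0.0689, which fell to 0.0132 without mouse 21 and below 0.05 also without mouse 33, 34, 42 or 46. By injection, the ratio of hyperoxia to room air in C57B was 0.283 in the saline mice and 1.06 in the aurothioglucose mice, both with overlap. The females lay in opposite directions, with a ratio of 0.133 after saline, without overlap, and 4.56 after aurothioglucose, with overlap, so that the averages over injection join both.

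**Figure D4:**
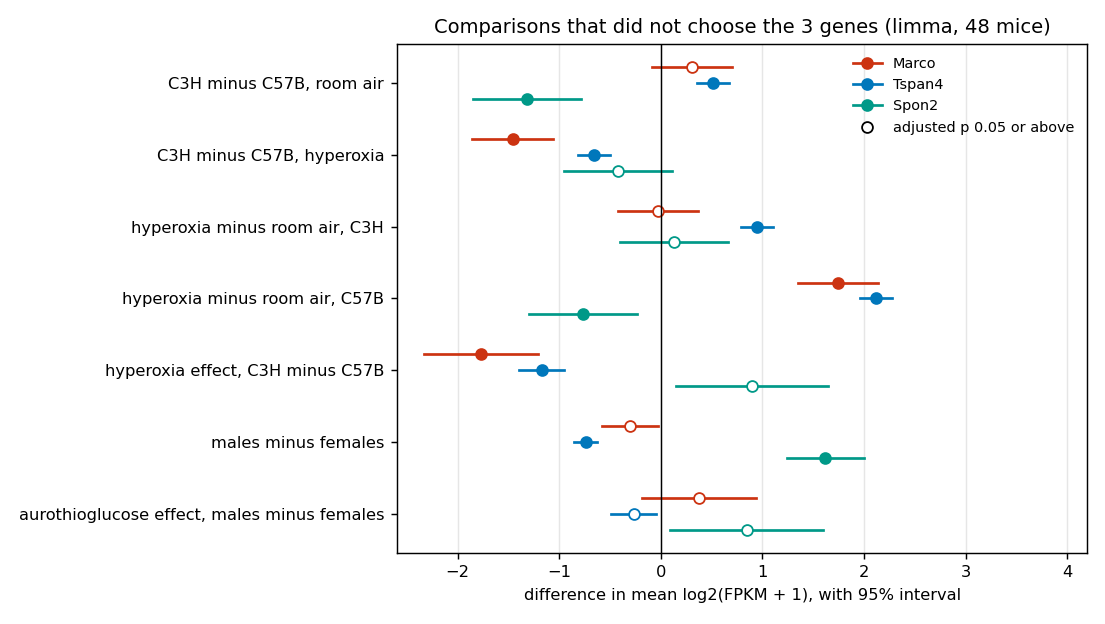
Differences in mean log2(FPKM + 1) with 95% intervals for the comparisons that did not choose the genes, from 1 limma fit of 48 mice, with filled points for an adjusted p under 0.05. Tspan4 and Marco in hyperoxia minus room air in C57B stood at 2.12 and 1.75, and Spon2 in males minus females at 1.62.

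Between the strains, Tspan4 was higher in C3H in room air, by 0.51 (SE 0.077, adjusted p = 2.22e-06), and lower in C3H in hyperoxia, by -0.66 (SE 0.077, adjusted p = 9.22e-09). The room air difference was larger in the females, at 0.80 (adjusted p = 4.09e-06, limma) in females alone, and in males alone it was 0.22 (adjusted p = 0.179). These averages join unlike injections. The ratio of C57B to C3H in room air was 0.358 after saline and 0.905 after aurothioglucose in females, and 0.877 and 0.820 in males. Dbp after saline differed as well, at 94.8 to 112 FPKM in C3HF and 13.8 to 24.3 FPKM in C57BF, and its part was not tested. Marco did not pass the test in room air, at 0.31 (SE 0.19, adjusted p = 0.241, 95% interval -0.085 to 0.71). In hyperoxia it was lower in C3H, by -1.46 (SE 0.19, adjusted p = 1.38e-07), at 9.38 ± 5.60 against 26.6 ± 16.9 FPKM. Marco in hyperoxia did not overlap between the strains after aurothioglucose, with 1.14 to 14.9 FPKM in C3H and 16.3 to 40.2 FPKM in C57B.

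Spon2 was lower in C3H in room air, by -1.32 (SE 0.26, adjusted p = 0.000162, limma), at 11.9 ± 9.27 against 33.0 ± 21.4 FPKM (n = 12 each). In males alone this was -0.97 (adjusted p = 0.0633, limma). The ratio of C57B to C3H for Spon2 in room air females was 11.6 after saline, without overlap, and 1.28 after aurothioglucose, with overlap. In males it was 2.35 and 1.81, neither with overlap. The part of the clock genes was not tested here either. In hyperoxia the strain difference of Spon2 was -0.42 (adjusted p = 0.200), and -0.69 (adjusted p = 0.00683) without mouse 19, the C57BM saline mouse at 2.27 FPKM. Without mice 1, 3 and 4 the strain differences in room air were 0.51 for Tspan4, 0.22 for Marco and -1.27 for Spon2. The strain comparison called 29.7% of all genes in room air and 40.5% in hyperoxia.

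Between the sexes, Spon2 was higher in males, by 1.62 (SE 0.18, adjusted p = 2.01e-07), at 25.7 ± 14.0 against 10.7 ± 13.9 FPKM (n = 24 each). Tspan4 was higher in females, by 0.74 (males minus females -0.74, SE 0.055, adjusted p = 5.87e-12), at 123 ± 54.6 against 83.3 ± 62.2 FPKM. Marco had a difference of -0.30 (SE 0.14, adjusted p = 0.146), and -0.40 (adjusted p = 0.0181) without mouse 34. This average joined unlike air groups. In room air the sexes overlapped throughout for Marco, with ratios of females to males of 0.668 to 1.17. In hyperoxia females lay above males without overlap in C3H after saline (1.65) and in C57B after saline (3.44) and aurothioglucose (1.69). In C3H after aurothioglucose in hyperoxia the ratio was 1.54, with overlap. The background was 12.4% of genes. The clock genes differed with sex as well, with 14 of 17 called, 12 of them lower in males and 2 higher, and a median log2 difference of -0.94, and their part in the sex differences of Spon2 and Tspan4 was not tested. Without mice 1, 3 and 4 the sex differences were 1.64 for Spon2, -0.74 for Tspan4 and -0.35 for Marco. The sex difference of Tspan4 was not seen in every group, since its ratio of females to males was 2.45 in C3H saline mice in room air and 1.00 in C57B saline mice in room air. For Spon2 the same ratios were 0.172 and 0.848, the second with overlap. The sexes also overlapped for Spon2 in hyperoxia in C3H saline mice and in C57B mice with either injection.

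In the order of the 16 group means, Marco ran from 2.85 ± 1.19 FPKM in C57BF after saline in room air to 45.0 ± 24.0 FPKM in C57BF after saline in hyperoxia. Of its 15 pairs of neighbours 14 overlapped, and the step from C57BM to C57BF after aurothioglucose in hyperoxia, 18.0 to 30.4 FPKM, did not. Tspan4 ran from 30.1 ± 2.74 FPKM in C57BM after aurothioglucose in room air to 201 ± 5.84 FPKM in C57BF after saline in hyperoxia. It had 5 steps without overlap, the widest of them from 36.6 FPKM in C3HM after aurothioglucose in room air to 73.7 FPKM in C3HM after saline in hyperoxia. Spon2 ran from 2.72 FPKM in C3HF after aurothioglucose in room air to 49.9 ± 18.5 FPKM in C57BM after saline in room air, and 1 of its 15 steps did not overlap, from C3HM after saline in room air, at 21.3 FPKM, to C57BM after aurothioglucose in hyperoxia, at 26.3 FPKM.

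Alveolar macrophage markers were read beside Marco. Siglecf, Chil3, Itgax and Ear2, the defining markers, were above 0 in all 48 mice, with medians of 3.09, 260, 11.6 and 78.1 FPKM. Of the 18 genes listed, Siglec5 was absent from the table, Ear10 was at 0 in 40 mice, Ear6 in 26 and Fabp1 in 12. In room air their summed level over both sexes in C3H was 368 to 687 FPKM after saline (median 493, n = 6) and 466 to 820 FPKM after aurothioglucose (median 600). In C57B in room air it was 353 to 863 FPKM (median 654) and 487 to 1052 FPKM (median 896). Joined over the sexes these ranges overlapped, but within males they did not. In C3HM the sum was 368 to 458 FPKM after saline and 535 to 820 FPKM after aurothioglucose, a ratio of means of 1.62, and in C57BM it was 766 to 863 and 931 to 1052 FPKM, a ratio of 1.20. In females the sums overlapped, with ratios of 0.934 in C3HF and 1.51 in C57BF. The corresponding ratios of Marco were 4.07, 2.46, 2.35 and 4.19. Chil3, the marker with the highest median, held a large part of the C57BM sums. Its mean there was 381 FPKM after saline and 526 FPKM after aurothioglucose, within mean sums of 815 and 982 FPKM. In C3HM the means of Chil3 were 51.2 and 133 FPKM, within mean sums of 427 and 693 FPKM. The difference in the C57BM sum thus lay mostly in this 1 gene. Of the 16 tested markers 0 were called in either strain in room air, against a background of 0% (C3H) and 0.053% (C57B). Their median log2 differences were 0.15 and 0.24.

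In C3H in hyperoxia the markers were lower after aurothioglucose, as was Marco. After aurothioglucose 9 of 16 tested markers were lower and none was higher, against 2.88% of all genes called in either direction, and the median log2 difference of the list was -0.65 against 0.027 over all genes. The largest were Ear1 at -1.84 (SE 0.31, adjusted p = 0.000368) and Ear2 at -1.66 (SE 0.20), ribonucleases of these cells, Chil3 at -1.54 (SE 0.29, adjusted p = 0.0016), a chitinase-like secreted protein, and Siglecf at -1.27 (SE 0.20), a sialic acid receptor (limma). The summed level was 476 to 1157 FPKM after saline (median 651) and 239 to 655 FPKM after aurothioglucose (median 292), and the groups did not overlap within either sex, with ratios of 0.485 in C3HM and 0.512 in C3HF. Mouse 36, with the highest Marco of its group, also had the highest sum, 655 FPKM, and mouse 34, with the lowest Marco, had 285 FPKM. Males alone gave 5 markers lower and females alone 1, and without mouse 34 it was 5. In C57B in hyperoxia no marker was called, with sums of 915 to 2016 FPKM after saline and 854 to 1895 FPKM after aurothioglucose. Between room air and hyperoxia, 8 markers were called higher and 6 lower in C57B (87.5% against 66% of all genes). In C3H 4 were higher and 6 lower (62.5% against 55.2%). The median sum in saline mice was 654 FPKM in room air and 1638 FPKM in hyperoxia in C57B, and 493 and 651 FPKM in C3H. After aurothioglucose it was 896 and 1364 FPKM in C57B, and 600 and 292 FPKM in C3H. Whether the number of these cells had a part in the level of Marco was not tested.

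**Figure D5:**
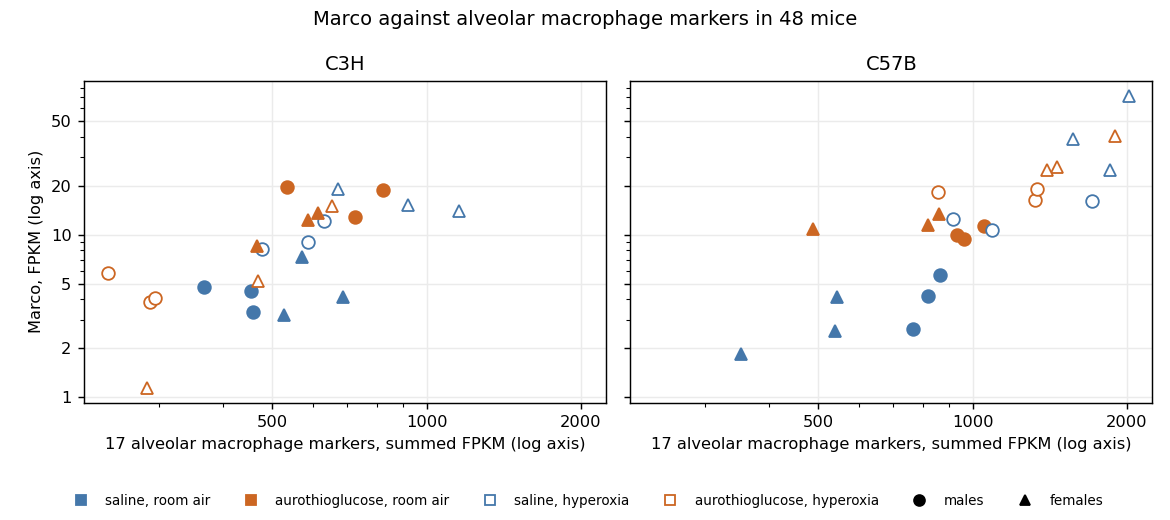
Marco against the summed FPKM of 17 alveolar macrophage markers in 24 C3H and 24 C57B mice, both on log axes, with saline in blue, aurothioglucose in orange, room air filled, hyperoxia open, males as circles and females as triangles. In room air Marco was higher after aurothioglucose, and the marker sum was higher as well in males, at 535 to 820 against 368 to 458 FPKM in C3HM and 931 to 1052 against 766 to 863 FPKM in C57BM. In C57BM the difference in the sum lay mostly in Chil3, at 490 to 564 against 359 to 394 FPKM. In C3H in hyperoxia the sum and Marco were both low after aurothioglucose.

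The families and pathways of the 3 genes were read against a background of 0% of genes called after aurothioglucose in C3H and 0.053% in C57B in room air, and of 2.88% and 2.69% in hyperoxia. Of 18 tested scavenger receptors other than Marco 1 was called, Cxcl16, which binds oxidised lipid and draws T cells, at 0.48 (SE 0.10, adjusted p = 0.00512, limma) in C3H in hyperoxia. Of 26 tested tetraspanins 3 were called, all in C3H in hyperoxia, with Tspan2 at -0.67 and Cd9 at -0.37 lower and Tspan31 at 0.23 higher, a share of 11.5% against the 2.88% of all genes. None of the 9 migrasome genes was called in any of the 4 comparisons. Of 9 tested spondins, R-spondins and integrins of mindin, Rspo3, a Wnt agonist, was called at 0.94 (adjusted p = 0.0432) in C3H in hyperoxia. None of the 13 Nrf2 targets and none of the 3 metallothioneins, metal-binding proteins, was called in any comparison, which at these backgrounds and list sizes says little about them, and the median log2 difference of the Nrf2 list lay between -0.030 and 0.17.

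In hyperoxia all genes of the Nrf2 list were called, and the other family and pathway lists held smaller shares of called genes. All 13 Nrf2 targets rose in both strains, against 55.2% of all genes called in either direction in C3H and 66% in C57B, with a median log2 difference of 1.11 in C3H and 1.85 in C57B. Of the 3 metallothioneins 2 rose in each strain, a share of 66.7%, with medians of 3.20 in C3H and 4.13 in C57B. Among the 26 tested tetraspanins other than Tspan4, 12 fell and 5 rose in C3H, and 17 fell and 3 rose in C57B, with medians of -0.21 and -0.54. The shares called, 65.4% and 76.9%, exceeded the background by few genes in a list of this size, and nothing is read from them. Of 18 scavenger receptors 6 rose and 5 fell in C3H, and 7 rose and 6 fell in C57B, shares of 61.1% and 72.2% that were near the background. Of 9 spondins, R-spondins and integrins 5 rose and 2 fell in C3H and 6 rose and 2 fell in C57B. These shares, 77.8% and 88.9%, also exceeded the background by few genes. Of 9 migrasome genes 5 rose and 2 fell in each strain, a share of 77.8%.

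Markers of other cells were read against the same backgrounds of 2.88% in C3H and 2.69% in C57B in hyperoxia, where lists of 3 to 9 genes would hold few or no calls. In C3H in hyperoxia Ccr2, the receptor of recruited monocytes, was higher at 1.58 (SE 0.38, adjusted p = 0.0128, limma). It was the only gene called of 9 in its list, which had a median of 0.396. Pdpn, 1 of 5 alveolar type 1 genes, was higher at 0.81 in a list with a median of -0.019. Tubb4b, 1 of 4 ciliated cell genes, was higher at 0.29 in a list with a median of 0.14. Ptprb and Pecam1, 2 of 6 endothelial genes, were lower at -0.60 and -0.43 in a list with a median of -0.303. In C57B in hyperoxia Ngp, a neutrophil granule protein, was lower at -1.88 (adjusted p = 0.0465, limma), 1 of 8 neutrophil genes with a median of -1.64. Tcf21, 1 of 6 fibroblast genes, was higher at 0.87 (adjusted p = 0.0394, limma) in a list with a median of -0.047. Without mouse 19 no gene at all was called in this comparison. Of the clock genes, Per1 was lower in C3H in hyperoxia at -0.84 (adjusted p = 0.0476). No gene of the lists for macrophages in general, T cells, B cells, NK cells, mesothelium, smooth muscle, alveolar type 2 cells, club cells or heart muscle was called in these 4 comparisons.

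The genes with the most similar levels differed between the 3 genes. Over the 48 mice, which share strain, air and sex as sources of variation, Marco was closest to Lpl, a lipase of alveolar macrophages (Pearson r = 0.752), Chil3 (0.714), Mmrn1 (0.684), Pacsin2 (0.677) and Kcnk1 (0.666). Tspan4 was closest to Mthfd1l, a mitochondrial folate enzyme (0.932), Map2k3, a stress kinase (0.905), Ctgf, a matrix protein (0.905), Ipo5, a nuclear import receptor (0.902) and Fkbp5, a co-chaperone of the glucocorticoid receptor (0.896). Spon2 was closest to Mthfd1, a cytosolic folate enzyme (0.808), Npas2 (0.795) and Arntl (0.752), both clock activators, 5430416O09Rik (0.747) and Ckb, a creatine kinase (0.746). After removal of the 16 group means the values for Marco fell to 0.419 for Lpl, 0.604 for Chil3, 0.108 for Mmrn1, 0.0731 for Pacsin2 and 0.135 for Kcnk1, so that 3 of its 5 genes had almost no relation within groups. Those for Tspan4 fell to 0.527 to 0.585, and those for Spon2 to 0.700 for Mthfd1, 0.676 for Ckb, 0.385 for Arntl, 0.277 for Npas2 and 0.142 for 5430416O09Rik.

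Within groups, 6 relations were tested on deviations from the 16 group means over 48 mice, by two-sided permutation within groups. Tspan4 and Spon2 deviated in opposite directions (Pearson r = -0.62, permutation p = 0.00462, adjusted p = 0.0277, Spearman rho = -0.42, permutation p = 0.0192). Leaving out mice 19 and 33, the farthest from the median of Tspan4, gave r = -0.475. The relation is carried by few mice: in C57BM after saline in hyperoxia mouse 19 had Tspan4 at 234 and Spon2 at 2.27 FPKM, and mouse 21 had 132 and 39.3 FPKM. Leaving out any of 10 mice (19, 20, 21, 31, 32, 33, 39, 40, 42 or 46) moved the adjusted p above 0.05, with r between -0.66 and -0.47 over all 48 omissions. Marco had r = 0.30 with the mean of the alveolar macrophage markers (permutation p = 0.101, adjusted p = 0.201, rho = 0.29, permutation p = 0.0932), or 0.18 without mice 34 and 36. Tspan4 had r = 0.32 with the markers (permutation p = 0.0562, adjusted p = 0.169, rho = 0.31, permutation p = 0.0653), or 0.26 without mice 19 and 33. Spon2 had r = -0.11 with the markers (permutation p = 0.497, adjusted p = 0.745, rho = -0.097, permutation p = 0.587), or -0.18 without mice 19 and 21. Marco had r = -0.012 with Tspan4 (permutation p = 0.903, adjusted p = 0.903, rho = -0.064, permutation p = 0.685), or 0.045 without mice 34 and 36. With Spon2 it had r = -0.029 (permutation p = 0.861, adjusted p = 0.903, rho = -0.11, permutation p = 0.543), or -0.21 without mice 34 and 36.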

How the data were processed

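Lung RNA of 48 mice was sequenced, and the authors deposited 1 table of FPKM values per gene and mouse. Per the labels, directional mRNA libraries were sequenced, and the submitters' processing notes name GSNAP, SAMtools and Cufflinks and the build mm10, whose reference strain is C57BL/6J. Whether C3H variants lowered the mapping of C3H reads was not tested. Read totals are not given, so depth per mouse is unknown. Groups came from the sample titles. The members and the gene lists were chosen with earlier results of these data known. Genes with at least 1 FPKM in at least 3 mice were tested (16994), and 1 gene with a failed estimate in 7 mice was left out. No pair of libraries was identical. Contrasts of the 16 group means of log2(FPKM + 1), a pseudocount of 1, came from limma 3.58.1 in R 4.3.3 with trend and Benjamini-Hochberg adjustment over all genes tested, called under 0.05, and the fit was tested on simulated data. The alternatives were another pseudocount, other filters, quantile and median ratio scaling, no trend, fewer mice and 1 mouse left out. Named genes were the 3 members, the 5 most correlated with each, and up to 4 called genes of each list. P-values measure the spread between mice.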

Additional observations from a re-analysis of the deposited data

Results flagged for a closer look

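Marco in C3H after aurothioglucose in hyperoxia held 1 mouse far from the others, mouse 36 at 14.9 FPKM, whose gap to the next of the 6 mice was 0.660 of the group's range, above the critical value of 0.625. It was the only one of 24 groups of 6 past that value, and chance marks about 1 in 20.

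The hyperoxia effect differed between the strains by test for Tspan4, by -1.17 (C3H minus C57B, log2 scale), and for Marco, by -1.77, as given in the report. For Tspan4 the difference after aurothioglucose in C57B in room air had a male minus female value of -1.57, a gap that was singled out after the values were seen in the mice that chose the gene and is given as a description.

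Marco moved in opposite directions in some pairs of groups, in every mouse and without overlap, and these differences were not tested because the same contrasts chose the gene. In C3HM the ratio of aurothioglucose to saline was 4.07 in room air and 0.470 in hyperoxia. In hyperoxia it was 0.470 in C3HM and 1.37 in C57BM.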

How the results depend on the processing

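The settings with 1 sex alone, without mice 1, 3 and 4 and by strain and air were chosen after seeing the data. Of 446 values recomputed under settings other than the omission of 1 mouse, 412 were counted as the same. With 1 mouse left out, 2358 of 2400 were. A tested value counted as the same if it stayed on its side of the threshold. A change of sign was allowed where neither value passed. For a count of genes the limit was 1.5 times, and for a member's difference after aurothioglucose it was the SD within groups. Signs could thus turn: Marco after aurothioglucose in C57B in hyperoxia stood at -0.0024 with all mice and 0.45 in males alone. Calls or values of the members changed when 1 sex was used, and some calls changed also with 1 mouse left out. In males alone the strain difference in room air was 0.22 for Tspan4 and -0.97 for Spon2, and the difference after aurothioglucose was 0.59 for Tspan4 in C3H in hyperoxia, -0.074 for Tspan4 in C57B in room air, where the sign turned, and -0.43 for Spon2 in C57B in room air. In females alone the hyperoxia effect of Spon2 in C57B was -0.42, and after aurothioglucose Tspan4 stood at 0.0022 in C3H in hyperoxia and 1.49 in C57B in room air, and Spon2 at -3.36. Within C57B in room air the sex difference of the response of Tspan4 was -1.57. The correlation of Tspan4 and Spon2 was -0.54 (adjusted p = 0.0532) by permutation after quantile normalization. The cause was not tested.

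Counts of genes called changed more. After aurothioglucose the counts for C3H in room air, C3H in hyperoxia, C57B in room air and C57B in hyperoxia were 1, 296, 0 and 0 in males alone, and the last 3 were 17, 15 and 34 in females alone. With only the mice compared, those in hyperoxia were 280 in C3H and 1 in C57B. With no filter 21 genes were called in C57B in room air, 1 in C3H in room air and 1 for aurothioglucose by sex. Median ratio scaling called 2 in C3H in room air, and leaving out mice 1, 3 and 4 called 1. By strain and air, aurothioglucose by sex called 0, 3, 3 and 1. The strain difference in hyperoxia called 3918 in males and that in room air 1944 in females, the strain by air interaction 2557 and 1709, and the sex difference 1251 without mice 1, 3 and 4.

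With 1 mouse left out in turn, the counts after aurothioglucose ranged from 0 to 1166 in C3H in room air (1166 without mouse 2, at most 4 without any other), 284 to 982 in C3H in hyperoxia (284 without mouse 32, 982 without mouse 33, 322 without mouse 36), 5 to 14 in C57B in room air (5 without mouse 13 or 38, 14 without mouse 17) and 0 to 1217 in C57B in hyperoxia (0 without mouse 19, 1217 without mouse 21, past 1.5 times for 10 mice). Aurothioglucose by sex ranged from 0 to 39 (39 without mouse 2, 7 without mouse 19). Spon2 ranged from -0.69 to -0.23 between the strains in hyperoxia and from 0.63 to 1.08 for strain by air, Marco from -0.40 to -0.22 between the sexes, and the correlation of Tspan4 and Spon2 from -0.66 to -0.47. No paired analysis was possible because each mouse has a number of its own. FPKM give no read counts, so counting error at low levels is unknown.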

Other observations

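In C57BM after saline in hyperoxia the clock activator gene Npas2 spread in the same order as Spon2. Mice 19, 20 and 21 had Spon2 at 2.27, 19.8 and 39.3 FPKM and Npas2 at 0.888, 1.84 and 7.40 FPKM, while Tspan4 was at 234, 178 and 132 FPKM. These 3 mice were picked out after their values were seen.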
